A study of Homo sapiens with 8 samples.

Results

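Genes of proteoglycans, hyaluronan and glycosaminoglycan synthesis are described here in BT549, a line of human triple-negative breast cancer cells, which lack oestrogen and progesterone receptors and amplified ERBB2. The list was chosen by name and role, with earlier results of these data known. It holds 43 genes: the hyaluronan synthases and receptors, the syndecans and glypicans, secreted proteoglycans, and the enzymes that build and sulfate the chains. Of these, 40 had a probe set with a single gene symbol and were among the 18417 genes tested; HAS1, SDC4 and NDST2 are not analysed here. Suspended BT549 cells, kept for 24 h over a coating of poly-HEMA, which stops cells from sticking to the plate, were compared with attached BT549 cells on ordinary tissue culture plates. There were 4 arrays in each group, described by the submitters as biological replicates. Both groups were in RPMI medium with 10% serum and insulin, and neither carries a genetic change or a drug. The labels give the attached cultures as 24 h in one place and as 48 h in another, so if the longer time holds, culture time and attachment cannot be told apart. The question addressed is how forced loss of attachment changes transcript levels.

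Glycosaminoglycans are long sugar chains. Heparan sulfate and chondroitin sulfate are built in the Golgi apparatus on a core protein, starting from a xylose on a serine, and are then sulfated in patterns that decide which growth factors and matrix proteins they bind. Hyaluronan has no core protein and no sulfate, and is spun out at the cell surface by the hyaluronan synthases. In breast tumours these molecules form much of the coat and the matrix through which cells are held, move and receive signals.

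The array values are log2 signals, with medians between 6.02 and 6.07 over the 8 arrays. There is no read depth for an array, and precision is limited by how few arrays each group holds. No background measure was used, so folds are ratios of signals, and a mean at or below 5.28, the 25th percentile over genes, is called a low signal here. The labelled cell type was checked on its markers. All 4 mesenchymal markers were above the low mark. VIM, a mesenchymal filament gene, had group means of 11.66 in suspended and 11.73 in attached cells and did not pass the test, whereas the other markers did: SPARC was higher by 0.37 (adjusted p = 0.000102 by limma) and ZEB1 by 0.27 (adjusted p = 0.00240), and CDH2 fell by 0.38 (adjusted p = 0.000104). The 5 epithelial markers were mixed. In suspended and attached cells CDH1 (4.26 and 4.19) and EPCAM (5.35 and 5.47) were near or below the low mark, while the keratins KRT18 (8.13 and 8.16), KRT19 (6.75 and 6.57) and KRT8 (6.37 and 6.42) were above it. Of the receptors, the oestrogen receptor ESR1 (5.11 and 5.04) and the progesterone receptor PGR (4.31 and 4.19) were below it, and ERBB2 stood at 7.53 and 7.48. By limma 0 of the 5 epithelial markers and 0 of the 3 receptors passed the test, and 0 of either had an unadjusted p under 0.05. The part of the mesenchymal markers that moved in the results below was not tested. Of 9 leukocyte, endothelial and adipocyte markers tested, with means of 3.94 to 5.90 in suspended and 3.94 to 5.76 in attached cells, CD14 passed the test (0.22 higher on the log2 scale, adjusted p = 0.0467), a call that held in 1 of the 8 refits that left out an array, the one without suspended replicate 2 (0.15 to 0.27). Its part in those results was not tested.

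Among the 40 tested members 12 were higher and 3 lower in suspension at an adjusted p under 0.05 by limma, that is 30.0% and 7.5% of them. Over all genes tested 10.4% were higher and 10.2% lower, 20.6% in all. The median log2 difference (suspended minus attached) was 0.08 for the members and 0.02 for all genes. A positive difference was found for 30 members and a negative one for 10, against 10582 and 7835 of all 18417 genes. Most changes were small: SULF2 moved furthest, 1.84-fold, and the median absolute log2 difference of the members was 0.11, against 0.09 for all genes. The values of the groups did not overlap for 16 members (40.0%), against 24.8% of all genes. In bulk RNA, a lower signal from fewer cells that make a transcript and from less transcript per cell cannot be told apart. A low signal was found for 10 members, of which VCAN passed the test. Of the other 30, 11 (36.7%) were higher and 3 (10.0%) lower, against 13.0% and 13.2% of all genes above the low mark.

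**Figure D1:**
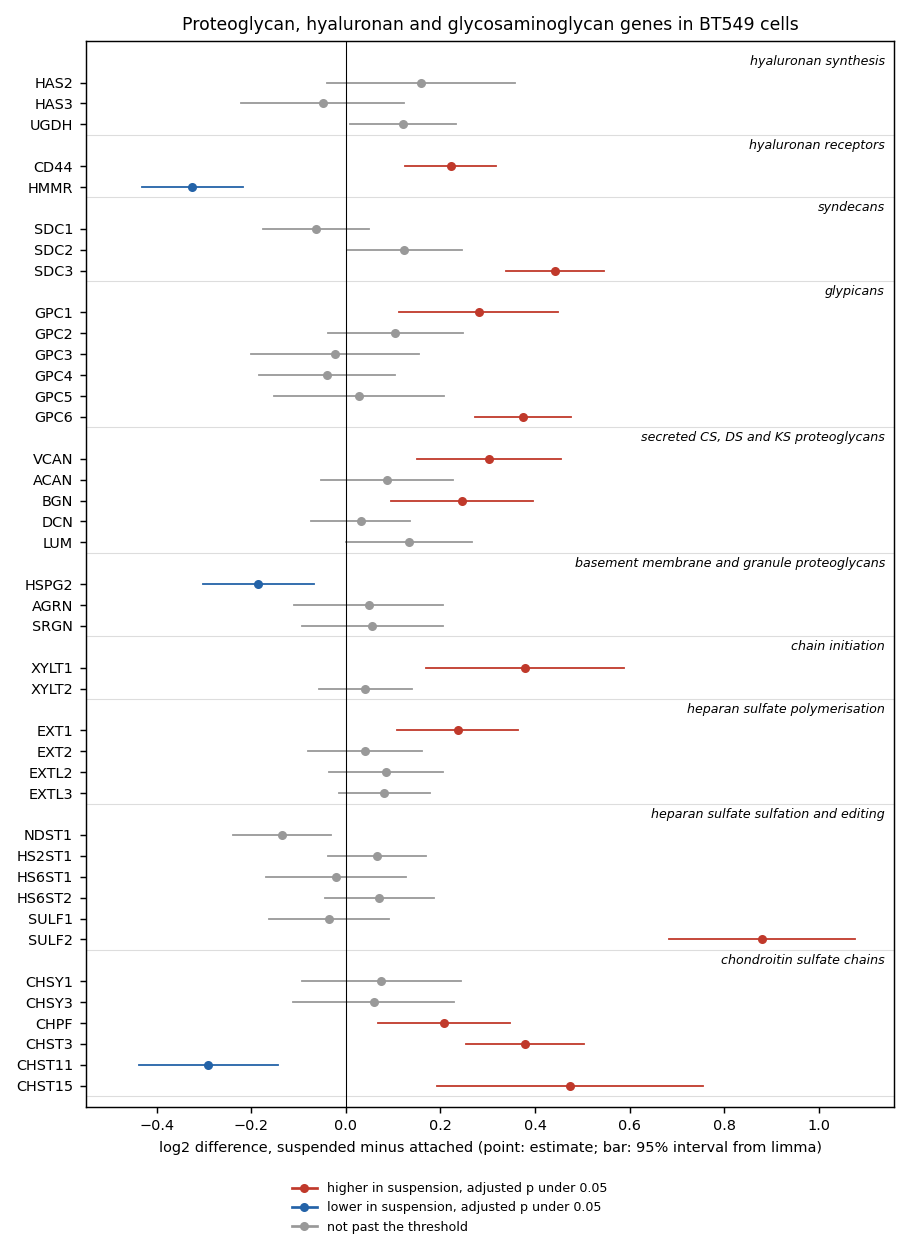
Log2 difference between 4 suspended and 4 attached arrays for each of the 40 tested members, ordered by role, with 95% intervals from limma as bars. SULF2 stands apart at 0.88, all other members lie within 0.5 of 0, and HMMR, CHST11 and HSPG2 are the members called lower.

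Enzymes that sulfate and edit heparan sulfate held the largest change of the list, in 1 of 6 tested members. SULF2, a secreted endosulfatase that removes sulfate groups from finished heparan sulfate chains outside the cell, had log2 signals of 6.86, 6.92, 6.70 and 6.90 in the suspended arrays, against 5.90, 6.25, 5.82 and 5.89 in the attached arrays (replicates 1 to 4 in each case). All suspended arrays were above all attached arrays, and attached replicate 2 was the highest of its group. The log2 difference was 0.88 (SE 0.090, 95% interval 0.68 to 1.08, adjusted p = 3.93e-05, probe set 8066822), and it ranked 102 of the 18417 genes by absolute difference. Its paralogue SULF1, which removes the same groups, had a low signal, 5.12 ± 0.06 in suspended and 5.15 ± 0.10 in attached cells (mean ± SD, n = 4 each), with a log2 difference of −0.04 (95% interval −0.16 to 0.09). The sequence before the SULF2 start is shown because this gene carried the largest change. It is the 250 bases upstream of the RefSeq start (GRCh38.p14, chr20:47786628-47786877, minus strand), with matches to the searched motifs in capitals; the single match is a CCAAT, 41 bases before the start, and no GGGCGG is in this window.
SULF2: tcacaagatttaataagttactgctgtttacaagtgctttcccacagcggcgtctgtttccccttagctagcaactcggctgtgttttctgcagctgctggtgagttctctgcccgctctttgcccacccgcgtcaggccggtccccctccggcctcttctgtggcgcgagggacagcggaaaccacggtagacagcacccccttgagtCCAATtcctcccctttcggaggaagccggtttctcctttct

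The sulfotransferases of the list that place sulfate on heparan sulfate did not pass the test. NDST1, which removes acetyl groups from glucosamine and puts sulfate there, had signals of 9.31, 9.23, 9.24 and 9.29 in the suspended arrays, against 9.33, 9.46, 9.41 and 9.42 in the attached arrays. The groups did not overlap, the suspended values being the lower, but the difference of −0.14 (SE 0.047) missed the threshold (adjusted p = 0.0682). It passed when genes of low signal were left out before the limma fit. The adjusted p was then 0.0454 above the 25th percentile (SE 0.046) and 0.0240 above the median level (SE 0.043). NDST1 also passed with array weights (0.0468), with a trended robust prior (0.0172) and without attached replicate 1 (0.0493). HS2ST1, HS6ST1 and HS6ST2, which sulfate other positions of the chain, had differences of 0.07, −0.02 and 0.07, and HS6ST2 had a low signal. Their 95% intervals all lay between −0.17 and 0.19.

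Of 6 chondroitin sulfate genes tested, 3 were higher and 1 lower by limma, against 10.4% and 10.2% of all genes. The number higher was 2 with the replicate number as a block or after median centring of the arrays. It was 1 over all probe sets, and 1 to 3 with 1 array left out. CHST15, which adds a further sulfate to N-acetylgalactosamine that already carries one, read 6.72, 6.65, 6.32 and 6.99 in the suspended arrays, against 6.40, 6.04, 6.05 and 6.30 in the attached arrays. This was the most variable member, with an SD of 0.28 in suspended and 0.18 in attached cells, and suspended replicate 3 lay below attached replicate 1, so the groups overlapped. The log2 difference was 0.47 (SE 0.128, adjusted p = 0.0220). The call was lost on omitting suspended replicate 1 or 4 or attached replicate 2 or 3 (range 0.37 to 0.59). It was also lost when all 33297 probe sets were fitted by limma and adjusted together (SE 0.141, adjusted p = 0.0665).

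CHST3, a sulfotransferase for N-acetylgalactosamine in chondroitin, had signals of 8.40, 8.34, 8.29 and 8.48 in the suspended arrays, against 7.92, 7.99, 8.10 and 7.97 in the attached arrays, with no overlap and a difference of 0.38 (SE 0.057, adjusted p = 0.000640). CHST11, which sulfates a different carbon of the same sugar, moved the other way, with 9.18, 9.27, 9.29 and 9.40 in the suspended arrays, against 9.52, 9.75, 9.53 and 9.51 in the attached arrays. It fell by 0.29 on the log2 scale (SE 0.067, adjusted p = 0.00923); the groups did not overlap, and attached replicate 2 stood above the other attached arrays. Both calls held in every one of the 17 alternatives run. Of the chain polymerising proteins, CHPF read 7.42, 7.42, 7.49 and 7.60 in the suspended arrays, against 7.23, 7.40, 7.31 and 7.16 in the attached arrays. Its suspended values were all above its attached values by a narrow margin, the difference being 0.21 (SE 0.063, adjusted p = 0.0389). This call was lost after median centring of the arrays (0.18, adjusted p = 0.0618), over all probe sets (0.0838), and without suspended replicate 3 or 4 or attached replicate 1, 3 or 4 (0.17 to 0.25). Its partners CHSY1 (0.08, 95% interval −0.09 to 0.24) and CHSY3 (0.06, −0.11 to 0.23, low signal) did not pass the test.

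CHST3 and CHST11 are chondroitin sulfotransferases whose calls went in opposite directions and held in all 17 alternatives, and the 250 bases before their RefSeq starts are shown for that reason (GRCh38.p14; CHST3 at chr10:71964145-71964394, plus strand; CHST11 at chr12:104456698-104456947, plus strand). Capitals mark GGGCGG, the GC box, on either strand, which was found at 1 place before CHST3 and at 2 before CHST11.
CHST3: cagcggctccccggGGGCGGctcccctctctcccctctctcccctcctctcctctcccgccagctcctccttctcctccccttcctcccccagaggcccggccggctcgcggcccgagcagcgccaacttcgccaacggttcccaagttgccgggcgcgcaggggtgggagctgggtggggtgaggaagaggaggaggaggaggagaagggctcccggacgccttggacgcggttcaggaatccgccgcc
CHST11: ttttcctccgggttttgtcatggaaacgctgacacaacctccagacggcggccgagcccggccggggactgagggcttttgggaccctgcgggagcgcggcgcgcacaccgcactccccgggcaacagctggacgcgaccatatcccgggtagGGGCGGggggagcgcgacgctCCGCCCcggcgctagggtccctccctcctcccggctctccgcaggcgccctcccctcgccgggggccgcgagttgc
Both windows are rich in G and C, at 72.4% for CHST3 and 73.2% for CHST11, and neither holds any of the other motifs searched.

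Hyaluronan receptors moved in opposite directions. CD44, the main hyaluronan receptor at the cell surface, read 11.68, 11.72, 11.78 and 11.70 in the suspended arrays, against 11.47, 11.50, 11.53 and 11.49 in the attached arrays. The 4 suspended values were all higher, within a narrow range, and the difference was 0.22 (SE 0.044, adjusted p = 0.00378), or 1.17-fold. HMMR, a hyaluronan-binding protein that also sits on the mitotic spindle and is transcribed with mitotic genes, had 7.76, 7.84, 7.84 and 7.73 in the suspended arrays, against 8.07, 8.11, 8.19 and 8.13 in the attached arrays. It fell by 0.32 on the log2 scale (SE 0.049, adjusted p = 0.000625), again with no overlap. Both calls held in all 17 alternatives. Beside HMMR, 12 of 12 genes on a mitosis list, such as TTK, BUB1 and CCNA2, were lower in suspension by limma. Over all genes 10.2% were lower. The median difference of the mitosis list was −0.25. That mitotic genes were lower was known when the list was made, and its part in the HMMR result was not tested.

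The HMMR upstream sequence is shown since it carries motifs known from genes of the mitotic phase (GRCh38.p14, chr5:163460382-163460631, plus strand). Capitals mark CCAAT, the core of the NF-Y site, TTTGAA, the core of the cell cycle homology region, GGAATG, the core of the TEAD site, and GGGCGG, each on either strand.
HMMR: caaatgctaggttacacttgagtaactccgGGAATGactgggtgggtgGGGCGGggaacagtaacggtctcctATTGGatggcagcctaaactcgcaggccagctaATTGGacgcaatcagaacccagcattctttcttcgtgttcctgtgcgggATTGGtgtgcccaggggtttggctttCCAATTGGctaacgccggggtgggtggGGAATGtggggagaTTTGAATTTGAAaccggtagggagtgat
CCAAT was found at 5 places, 2 of them overlapping on opposite strands, and TTTGAA at 2 adjoining places, 28 and 22 bases before the start. Both motifs together were in 4.85% of the 27305 upstream windows of the same length, and in 4 of the 10 windows available for the mitosis list. The doubled TTTGAATTTGAA was in 5 windows. Of the 40 members 30 had a window: GGGCGG was in 26 of them against 42.3% of all windows (noncoding genes among them), CCAAT in 5 against 33.0%, TTTGAA in 3 against 13.6%, GGAATG in 5 against 11.9% and TGACTCA, the AP-1 site, in 1 against 4.16%. GGGCGG was in 9 of the 11 windows of members called higher, 3 of the 3 called lower and 14 of the 16 not called.

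Of 3 hyaluronan synthesis genes 0 passed the test by limma, and 1 (UGDH) had an unadjusted p under 0.05. HAS2 had signals of 6.88, 7.05, 7.08 and 6.84 in the suspended arrays, against 6.84, 6.73, 6.60 and 7.04 in the attached arrays, and HAS3 had 6.90, 6.91, 6.64 and 6.95 in the suspended arrays, against 6.86, 6.76, 7.04 and 6.93 in the attached arrays. For both synthases the groups overlapped. The difference was 0.16 for HAS2 (95% interval −0.04 to 0.36, adjusted p = 0.254) and −0.05 for HAS3 (−0.22 to 0.12, adjusted p = 0.711). UGDH, which makes the UDP-glucuronic acid that every one of these chains except keratan sulfate needs, read 9.92 ± 0.08 in suspended and 9.80 ± 0.03 in attached cells; its groups did not overlap, yet the difference of 0.12 missed the threshold (adjusted p = 0.127), and passed it after quantile normalization (0.17, adjusted p = 0.0161) and with a trended robust prior (adjusted p = 0.0417).

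Among the core proteins of the cell surface, 3 of 9 (33.3%) were higher and 0 lower by limma, against 10.4% and 10.2% of all genes. At an unadjusted p under 0.05 the counts were 4 and 0, against 3234 and 2746 of 18417 genes. Syndecans are transmembrane proteoglycans. SDC3 read 7.71, 7.81, 7.74 and 7.84 in the suspended arrays, against 7.36, 7.34, 7.28 and 7.35 in the attached arrays, a wide gap compared with the spread in either group. Its difference was 0.44 (SE 0.047, 1.36-fold, adjusted p = 5.62e-05), the most significant after SULF2. SDC1, the syndecan typical of epithelia, had 7.28, 7.19, 7.27 and 7.31 in the suspended arrays, against 7.28, 7.43, 7.31 and 7.28 in the attached arrays, and SDC2 had 6.29, 6.18, 6.17 and 6.30 in the suspended arrays, against 6.09, 6.19, 6.01 and 6.15 in the attached arrays. The groups overlapped for both, with differences of −0.06 (95% interval −0.18 to 0.05) for SDC1 and 0.12 (0.00 to 0.25, adjusted p = 0.149) for SDC2.

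Glypicans are held in the membrane by a lipid anchor. GPC6 read 9.19, 9.24, 9.21 and 9.19 in the suspended arrays, against 8.77, 8.86, 8.90 and 8.80 in the attached arrays, with an SD of 0.02 in the suspended group. It was higher by 0.38 (SE 0.046, adjusted p = 0.000160), and the call held in every alternative run (0.35 to 0.42). GPC1 had 7.91, 7.94, 8.02 and 8.25 in the suspended arrays, against 7.84, 7.65, 7.81 and 7.70 in the attached arrays, with suspended replicate 4 above the rest. Its difference of 0.28 (SE 0.076, adjusted p = 0.0225) lost its call on omitting attached replicate 2 or 4 (range 0.21 to 0.32) or over all probe sets (adjusted p = 0.0608). GPC3, GPC4 and GPC5 had low signals and differences of −0.02, −0.04 and 0.03, and GPC2 one of 0.10 (adjusted p = 0.299); a dimmer GPC2 probe set gave 0.22 (adjusted p = 0.153 over all probe sets).

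Of the secreted proteoglycans, VCAN and BGN were higher. VCAN encodes versican, a large chondroitin sulfate proteoglycan that binds hyaluronan, and had 5.32, 5.38, 5.27 and 5.48 in the suspended arrays, against 4.90, 5.20, 5.03 and 5.11 in the attached arrays. The groups did not overlap, and the difference was 0.30 (SE 0.069, adjusted p = 0.00905), but the signal was low, the mean over all arrays being below 5.28; both level filters remove the gene. BGN, which encodes the small proteoglycan biglycan, read 7.19, 7.33, 7.23 and 7.45 in the suspended arrays, against 7.02, 6.98, 7.20 and 7.03 in the attached arrays. Attached replicate 3 was above suspended replicate 1. The difference was 0.25 (SE 0.068, adjusted p = 0.0249), not called without suspended replicate 2 or 4 or attached replicate 1, 2 or 4 (0.20 to 0.29), nor over all probe sets (0.0625). The related DCN (decorin) and LUM (lumican) had low signals, with differences of 0.03 and 0.13, and ACAN, which encodes aggrecan of cartilage, one of 0.09 (adjusted p = 0.380).

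In the basement membrane group HSPG2, which encodes perlecan, read 6.70, 6.67, 6.78 and 6.85 in the suspended arrays, against 6.86, 6.94, 6.99 and 6.95 in the attached arrays. Suspended replicate 4 lay just below attached replicate 1. It fell by 0.18 on the log2 scale (SE 0.053, adjusted p = 0.0301), a call lost over all probe sets (adjusted p = 0.0622) and without suspended replicate 1 or 2 or attached replicate 2, 3 or 4 (−0.22 to −0.16). AGRN (agrin) and SRGN, the proteoglycan of secretory granules, had differences of 0.05 and 0.06, SRGN with a low signal.

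At the start of chain building, XYLT1, a xylosyltransferase that attaches the first sugar to the core protein, had 7.41, 7.12, 7.15 and 7.52 in the suspended arrays, against 6.78, 7.04, 7.004 and 6.86 in the attached arrays. Every suspended value was higher, and the suspended arrays fell into a brighter pair (replicates 1 and 4) and a dimmer pair. The difference was 0.38 (SE 0.095, 1.30-fold, adjusted p = 0.0149). XYLT2, which catalyses the same step, differed by 0.04 (95% interval −0.06 to 0.14, adjusted p = 0.566). EXT1, the heparan sulfate polymerase that works in a complex with EXT2, read 10.21, 10.32, 10.35 and 10.44 in the suspended arrays, against 10.01, 10.17, 10.10 and 10.09 in the attached arrays. It was higher by 0.24 (SE 0.058, adjusted p = 0.0132) with no overlap, while EXT2 differed by 0.04 (95% interval −0.08 to 0.16). EXTL2 and EXTL3, related glycosyltransferases, each differed by 0.08 and did not pass the test; the EXTL3 groups did not overlap (adjusted p = 0.226).

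**Figure D2:**
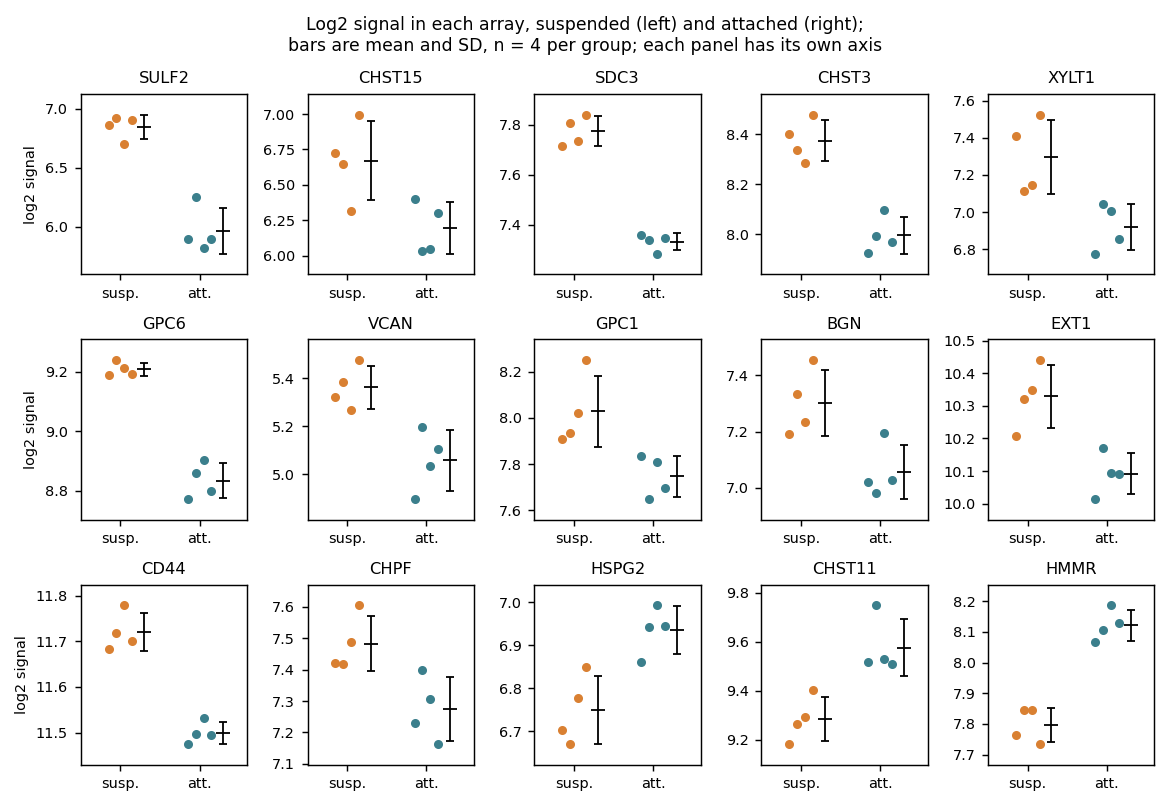
Log2 signal in every array for the 15 members past the threshold, suspended arrays left and attached arrays right, with the group mean and SD (n = 4 per group) beside the points; each panel has its own axis. For 13 of the 15 the groups are apart, while CHST15 and BGN overlap.

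Members with like roles were compared within each array, to ask whether they changed by unequal amounts. Of 18 pairs planned 15 could be formed, and each was tested with an exact two-sided permutation test over the 70 splits of the arrays, whose smallest p is 0.0286. That value was reached by 5 pairs, and after Benjamini-Hochberg adjustment over the 15 pairs their p was 0.0857, so 0 pairs passed 0.05. No pair could pass by its own size, however large, since passing would have needed more pairs at the smallest p. The count therefore does not show that members changed equally. SULF1 minus SULF2 differed by −0.92 between the groups, being −1.73 ± 0.11 in suspended and −0.81 ± 0.21 in attached arrays (mean ± SD, n = 4 each). CHST11 minus CHST15 differed by −0.76, and its 4 suspended values lay below its 4 attached values. CD44 minus HMMR differed by 0.55, XYLT1 minus XYLT2 by 0.34 and SDC1 minus SDC2 by −0.19, in each case with no overlap of the groups. The pairs HAS2 and HAS3 (0.21, p = 0.314 by the exact permutation test, adjusted p = 0.464) and EXT1 and EXT2 (0.20, exact p = 0.0571, adjusted p = 0.143) were among the 10 with overlap.

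**Figure D3:**
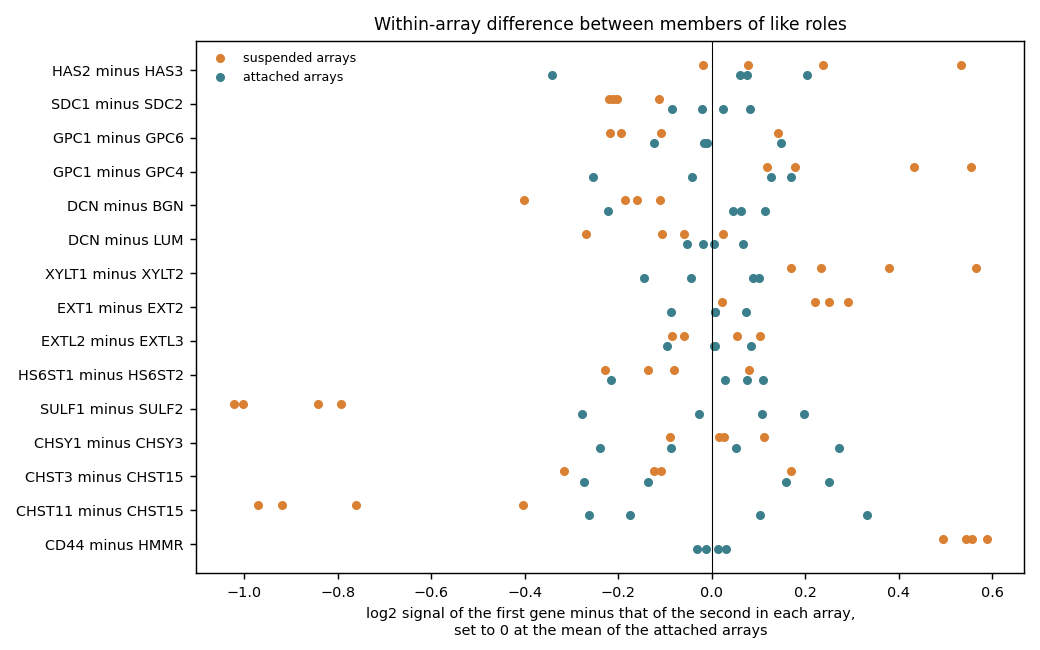
Within-array difference in log2 signal between 2 members of like role, set to 0 at the mean of the attached arrays, with 4 suspended (upper) and 4 attached (lower) points in each row. SULF1 minus SULF2 and CHST11 minus CHST15 lie furthest to the left in suspended arrays, and CD44 minus HMMR to the right.

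The rest of the pathway was read from a wider list of 113 genes, of which 106 were tested: 20 (18.9%) were higher and 5 (4.7%) lower in suspension, with a median difference of 0.06. The share called, 23.6%, is near the 20.6% of all genes. Here too the largest rises were in heparan sulfate modification, where 3 of 12 genes were higher and 0 lower by limma. Over all genes 10.4% were higher and 10.2% lower. At an unadjusted p under 0.05 the counts were 5 and 0, against 3234 and 2746 of 18417 genes. HS6ST3, a sulfotransferase that adds sulfate of the kind SULF2 removes, read 7.72, 7.61, 7.50 and 7.71 in the suspended arrays, against 6.48, 6.71, 6.55 and 6.59 in the attached arrays. It was 2.08-fold higher (log2 1.05, SE 0.065, adjusted p = 8.74e-07). GLCE, the epimerase that turns glucuronic into iduronic acid within the chain, had 8.06, 8.08, 7.84 and 8.09 in the suspended arrays, against 7.15, 7.16, 7.24 and 7.25 in the attached arrays. Its difference was 0.82 (SE 0.062, adjusted p = 4.21e-06); for both genes the groups lay far apart. HS3ST1, which adds a rarer sulfate found in the antithrombin-binding sequence, was higher by 0.20 (adjusted p = 0.0220), not called without suspended replicate 1 or attached replicate 3 or 4 (0.17 to 0.22).

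Genes of the linkage region and of the sugar and sulfate donors split. Of 16, 5 (31%) were higher and 2 (12.5%) lower, against 10.4% and 10.2% of all genes (3 higher after median centring or over all probe sets). B3GAT3, which adds the last sugar of the linkage region, was higher by 0.37 (adjusted p = 0.00377). UAP1, which makes UDP-N-acetylglucosamine, a building block of hyaluronan and heparan sulfate, read 10.25, 10.19, 10.21 and 10.07 in the suspended arrays, against 10.73, 10.69, 10.72 and 10.72 in the attached arrays. It fell by 0.53 on the log2 scale (SE 0.050, adjusted p = 1.95e-05). GNPNAT1, which acts upstream of UAP1 in the same route, fell by 0.44 (adjusted p = 0.000555). Of 11 further chondroitin and dermatan sulfate genes CHST13 was higher (0.29, adjusted p = 0.0410), not called without suspended replicate 1 or 4 or attached replicate 1, 3 or 4 (0.21 to 0.34), with array weights or over all probe sets. Of 8 genes listed under keratan sulfate B4GALT1, a galactosyltransferase that also acts on many other glycans, fell by 0.62 (SE 0.048, adjusted p = 4.97e-06).

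Among 22 other proteoglycans 3 (13.6%) were higher and 2 (9.1%) lower, near the 10.4% and 10.2% of all genes. After median centring or over all probe sets 1 was higher, and 1 or 2 with 1 array left out. TGFBR3, the co-receptor betaglycan, rose by 0.65 on the log2 scale (SE 0.092, adjusted p = 0.000414), SPOCK1, which encodes a testican, fell by 0.39 (adjusted p = 0.00165), and ASPN (asporin), at a low signal, fell by 0.26 (adjusted p = 0.0254), not called without suspended replicate 1 or 4 or attached replicate 1 or 4 (−0.31 to −0.21). Of 17 genes that bind or assemble hyaluronan, HAPLN3, a link protein, was higher (0.49, adjusted p = 0.000279). Of 20 genes of degradation 7 were higher and 0 lower by limma, against 10.4% and 10.2% of all genes. At an unadjusted p under 0.05 the counts were 9 and 0, against 3234 and 2746 of 18417 genes. The number higher was 4 after median centring of the arrays or over all probe sets, and 4 to 7 with 1 array left out. CEMIP, needed for hyaluronan depolymerisation, differed by 0.37 (adjusted p = 0.00591). HGSNAT and SGSH, lysosomal enzymes that take heparan sulfate apart, differed by 0.35 (adjusted p = 0.000209) and 0.30 (adjusted p = 0.00618).

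**Figure D4:**
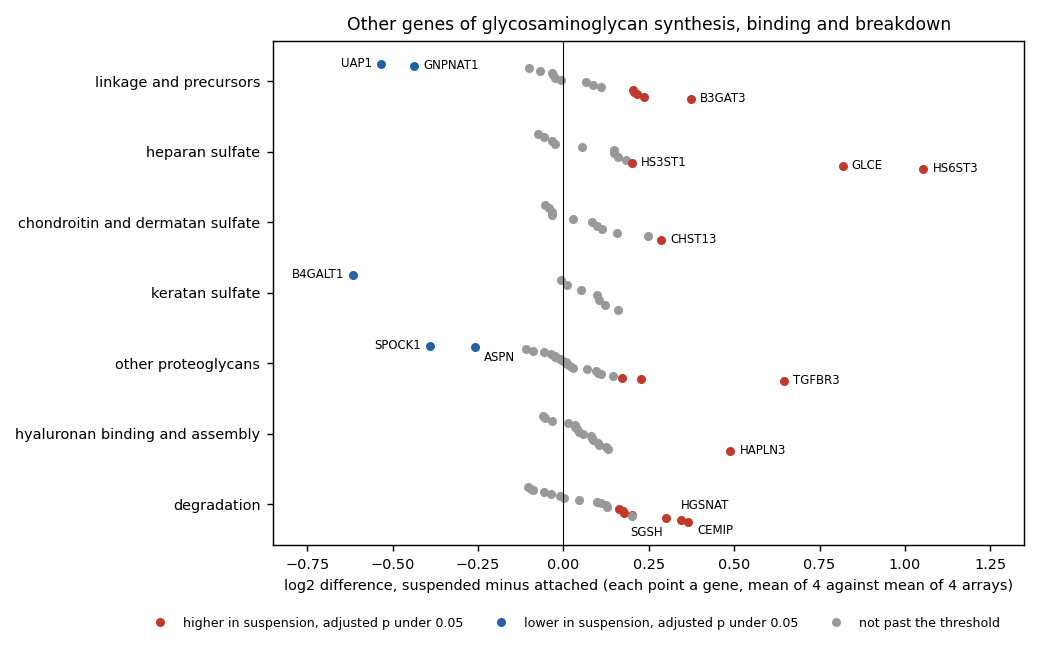
Log2 difference, suspended minus attached, of 106 further genes of the pathway by role class, each point a gene (means of 4 against 4 arrays). HS6ST3 (1.05) and GLCE (0.82) lie furthest to the right, and B4GALT1 (−0.62) and UAP1 (−0.53) furthest to the left.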

How the data were processed

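Total RNA of 8 BT549 cultures (4 suspended, 4 attached, biological replicates per the labels) was measured on whole-transcript arrays; 1 µg per sample was biotin-labelled, per the labels' protocols, with a kit used for small RNA. The authors deposited 1 table of 33297 probe sets, taken as log2 signals from their range (array maxima 13.69 to 13.73). Partek was used, per the submitters' processing notes; its background correction, scaling and summary steps are not given in the sources here.

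Probe sets with 1 symbol in the platform annotation (19460; 1754 had several and 12083 none) gave 18417 genes, the brightest of several standing for a gene. No low-signal filter was applied. Groups were compared with limma 3.58.1 (R 4.3.3; lmFit, eBayes, two-sided), with Benjamini-Hochberg adjustment over all genes and a threshold of 0.05. SE is the moderated standard error, and SD is over 4 arrays. The steps were tested on simulated data. Alternatives were a block on replicate number, quantile normalization, median centring, 2 level filters and the mean of probe sets. Further ones were a fit and adjustment over all probe sets, array weights, another variance prior, and leaving out each array. The level filters and the fit over all probe sets also re-estimate the SE. Same-numbered arrays correlated at −0.20 to 0.04 in their deviations from group means, against −0.20 to 0.26 for arrays of other numbers. No pairing by number was seen, but these values cannot show whether the cultures were set up in pairs. Upstream sequences are from RefSeq (GRCh38.p14), cut to 250 bases before the start; protein sequences were not used here. Named genes are all tested members, the 3 largest called changes in each further class, and markers. Members and lists were chosen with earlier results of these data known. Since all cultures are of 1 line, p-values speak to these cultures alone. Python 3.11.15, pandas 2.3.3 and matplotlib 3.10.9 were used.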

Additional observations from a re-analysis of the deposited data

Results flagged for a closer look

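Over 110 groups of 4 arrays (40 members and 15 further named genes, in each condition), 10 held an array whose gap to its nearest neighbour took up most of the group's range by Dixon's test; chance flags about 1 in 20. The arrays concerned were not the same throughout. Among genes past the threshold, CHST11 read 9.75 in attached replicate 2 against 9.51 to 9.53 in the other attached arrays, GLCE 7.84 in suspended replicate 3 against 8.06 to 8.09, and HGSNAT 9.06 in suspended replicate 1 against 9.12 to 9.13; all 3 calls held without these arrays. Among members not called, HAS3 read 6.64 in suspended replicate 3 (others 6.90 to 6.95), LUM 3.55 in suspended replicate 3 (others 3.33 to 3.36), HS2ST1 8.49 in suspended replicate 1 (others 8.60 to 8.62) and SULF1 5.21 in suspended replicate 1 (others 5.08 to 5.09). In attached cells DCN read 3.94 in replicate 3 (others 4.04 to 4.06), HS6ST1 7.06 in replicate 1 (others 7.30 to 7.34) and CHSY3 4.05 in replicate 2 (others 4.27 to 4.28). Suspended replicate 4 was not flagged, yet it read highest of its group for SDC3, GPC1, VCAN, BGN, XYLT1, EXT1, CHPF, CHST3 and CHST15. For SULF2, CD44 and GPC6, also called higher, another suspended array was highest. With 1 array left out, the smallest estimates of BGN (0.20), CHPF (0.17) and CHST15 (0.37) were those without suspended replicate 4. The same held for SDC3 (0.42), GPC1 (0.21), XYLT1 (0.30), EXT1 (0.20) and CHST3 (0.34), whose calls were kept without that array. For VCAN, SULF2, CD44 and GPC6 the smallest estimate came on leaving out another array.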

How the results depend on the processing

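Of the 15 member calls, those of SULF2, SDC3, CHST3, GPC6, CD44, HMMR, EXT1 and CHST11 held in all 17 alternatives; that of VCAN held in the 15 that tested it, both level filters removing the gene. The number of members called higher was 8 to 13 and lower 2 to 4, against 12 and 3. With the replicate number as a block, 9 members were called higher and 2 lower by limma. In that fit BGN (adjusted p = 0.0555), HSPG2 (0.0513), XYLT1 (0.0509) and CHPF (0.0953) were not called. Whether the numbers mark paired cultures is not known here, so the calls of these genes depend on that choice. The count of further pathway genes called higher, 20, was 12 with the block, 13 after median centring, 12 over all probe sets, and 11 to 19 with 1 array left out. Fewer arrays, or more features to fit and adjust over, are part of how those settings are built. The fit over all probe sets re-estimates the SE as well (0.081 for GPC1, against 0.076). Otherwise the cause was not tested. Members near 0 changed sign with 1 array left out: HAS3 (−0.094 to 0.022), GPC3 (−0.094 to 0.044), GPC4 (−0.068 to 0.012), GPC5 (−0.017 to 0.094), AGRN (−0.012 to 0.104), HS6ST1 (−0.086 to 0.0070), SULF1 (−0.069 to 0.0071) and CHSY3 (−0.0030 to 0.106), and the pair EXTL2 minus EXTL3 was −0.030 (0.0034 as deposited) after quantile normalization. For the pairs, leaving out an array allows no p below 0.0571, and a block none that passes, so neither was run. Without a background measure, low signals limit 10 members.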
